A study of Mus musculus with 48 samples.

Results

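The 35 genes described here encode receptors for serotonin (14 genes), dopamine (5), noradrenaline and adrenaline (8), acetylcholine at muscarinic sites (5) and histamine (3). They were chosen by gene symbol, matched from the Ensembl gene IDs of the RNA count tables. No measured value served as a criterion, but earlier results of these data were known when they were chosen. All 35 were in the tables of both RNA materials, which held 48709 gene IDs for neuron RNA and 47729 for RNA of the whole CA region. The study profiled the hippocampal CA region of adult C57BL/6J mice of 4 to 6 months. Setd1b cKO animals, which carry a conditional knockout of a histone H3 lysine 4 methyltransferase gene, stood against animals labelled Control. Neuron RNA was represented by 3 libraries per genotype label and whole CA RNA by 6 per label. Histone marks were profiled in sorted, fixed neuronal nuclei, with 4 libraries of each genotype for H3K4me3 and for H3K4me1, 4 labelled cKO and 3 labelled control for H3K27ac, and 3 labelled cKO and 4 labelled control for H3K9ac. The labels name neither the Cre driver, the deleted exons nor any allele of the controls, and they do not say how neurons were obtained for RNA or whether each library is a separate animal. The p-values therefore measure the spread between these libraries, which may be technical in part.

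Except for the Htr3 subunits, which form cation channels, all of these receptors couple to G proteins. The Gi/o-coupled members lower cyclic AMP and open potassium channels, the Gq-coupled members activate phospholipase C and calcium release, and the Gs-coupled members raise cyclic AMP. In the hippocampus their ligands arrive mainly through projections from the raphe nuclei, the locus coeruleus, the midbrain, the medial septum and the tuberomammillary nucleus, and they set excitability and synaptic plasticity. Because the values come from bulk samples, fewer cells of a type and less RNA per cell cannot be told apart.

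The libraries held 55.7 to 69.1 M counted reads for neuron RNA and 14.9 to 20.1 M for whole CA RNA. Whole-gene counts of the targeted gene went against the labels. Setd1b stood at 59.9 to 72.1 CPM (read counts scaled to the library's total count) in neuron RNA labelled cKO and at 47.6 to 65.4 in control (log2 fold change 0.25, adjusted p = 0.36, edgeR). It was higher in whole CA RNA labelled cKO, at 54.6 to 67.6 CPM against 29.5 to 54.4 (log2 fold change 0.59, adjusted p = 0.0041, edgeR). Counts over a whole gene do not show whether a short deleted stretch is missing, so the genotypes are given below as labelled, and every direction rests on those labels. Summed astrocyte markers stood at 356 to 450 CPM in neuron RNA and at 5532 to 6454 in whole CA RNA, and microglial markers at 9.85 to 11.7 and 239 to 326.

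The upstream sequences of 3 of the genes are shown. Htr1a had the largest difference in RNA and Drd1 the largest in H3K4me3, and Htr2a was called in the RNA of both materials but in H3K4me3 only in a window of 5 kb and not in one of 2 kb. Each is the 250 bases before the gene start in the RefSeq table of GRCm38.p6, 5′ to 3′ on the gene's strand, with CpG dinucleotides in capitals. The complexes of SETD1 enzymes contain CXXC1, a protein that binds unmethylated CpG.
Htr1a: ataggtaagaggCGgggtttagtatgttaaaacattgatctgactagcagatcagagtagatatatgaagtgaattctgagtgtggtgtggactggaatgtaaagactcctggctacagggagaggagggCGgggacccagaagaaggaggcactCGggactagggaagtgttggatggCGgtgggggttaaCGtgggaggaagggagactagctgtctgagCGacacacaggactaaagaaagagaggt
Drd1: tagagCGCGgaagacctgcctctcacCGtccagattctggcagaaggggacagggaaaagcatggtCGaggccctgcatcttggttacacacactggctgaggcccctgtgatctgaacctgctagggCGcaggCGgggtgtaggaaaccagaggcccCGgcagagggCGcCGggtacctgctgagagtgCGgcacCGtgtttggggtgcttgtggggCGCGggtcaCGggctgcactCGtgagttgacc
Htr2a: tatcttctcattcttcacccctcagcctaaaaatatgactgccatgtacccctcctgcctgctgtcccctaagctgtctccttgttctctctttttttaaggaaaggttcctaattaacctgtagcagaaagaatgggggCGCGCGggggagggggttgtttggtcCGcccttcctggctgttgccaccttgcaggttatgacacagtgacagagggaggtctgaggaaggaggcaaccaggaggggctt
The Htr1a stretch lies at chr13:105443443-105443692 on the plus strand and holds 6 CpG. The Drd1 stretch lies at chr13:54055659-54055908 on the minus strand and holds 15 CpG, and the Htr2a stretch lies at chr14:74640624-74640873 on the plus strand and holds 4. The table lists 2 starts for Drd1, and the stretch before the other, at chr13:54054781-54055030, holds 5 CpG at a ratio of observed to expected CpG of 0.217. The median was 6 CpG over all 32841 listed starts of the table and 10 over the 36 listed starts of the 28 receptor genes found in it. The ratio of observed to expected CpG was 0.509 for Htr1a, 0.604 for the printed Drd1 stretch and 0.23 for Htr2a, beside a median of 0.374 over all starts. The letters TATAAA, searched on both strands, were in none of the 3 stretches and in 12.4% of the starts in the table.

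In neuron RNA, 7 receptor genes were lower in the libraries labelled cKO and none was higher. Serotonin receptors made up 4 of them (Htr1a, Htr5b, Htr2a and Htr1b), muscarinic receptors 2 (Chrm5 and Chrm3) and adrenergic receptors 1 (Adra2a). Of the 35 genes, 32 passed the filter on low counts and were tested with edgeR's quasi-likelihood test, with calls at an adjusted p under 0.05 over all genes tested. Over all 19622 genes tested, 2.75% were called in either direction and 2% were called lower. Of 29 receptor genes tested in whole CA RNA, 9 were called lower and 1, Chrm4, was called higher. The lower ones were Htr1a, Htr2a, Htr1b, Htr5b, Htr4, Drd1, Adra2a, Chrm5 and Chrm3. Over all 15362 genes tested there, 4.17% were called in either direction, 2.79% lower and 1.38% higher. The 7 genes called in neuron RNA were all among the 10 called in whole CA RNA, in the same direction. That overlap was 100% of the neuron calls and 70.0% of the whole CA calls, and for all genes 206 shared calls made up 38.2% and 32.2%.

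**Figure D1:**
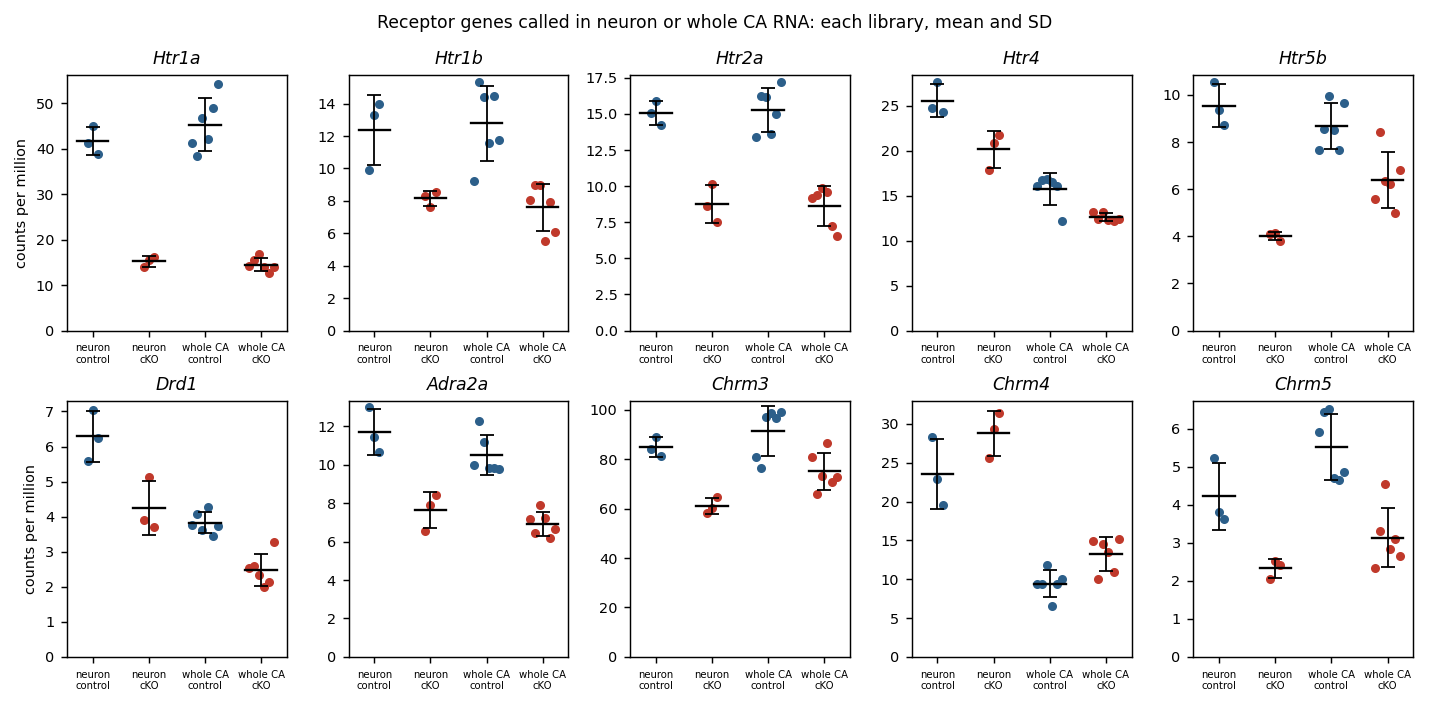
Scaled read counts (CPM) of the 10 receptor genes called in neuron or whole CA RNA, 1 panel per gene with a linear axis from 0. Points are libraries, blue labelled control and red labelled cKO, and bars give the mean and SD (n = 3 for neuron RNA, n = 6 for whole CA RNA). Htr1a shows the widest gap, at 38.9 to 45.0 in control neuron RNA and 13.9 to 16.2 in neuron RNA labelled cKO, and Chrm4 is the gene whose cKO points lie higher.

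Htr1a (ENSMUSG00000021721, chromosome 13) encodes the Gi/o-coupled receptor through which serotonin hyperpolarises hippocampal pyramidal cells. Neuron RNA labelled cKO held 13.9, 15.6 and 16.2 CPM of it, and control neuron RNA held 41.4, 45.0 and 38.9 CPM. In whole CA RNA the 6 libraries labelled cKO ran from 12.6 through a median of 14.1 to 16.9 CPM, and the 6 controls from 38.5 through 44.4 to 54.3 CPM. Every library labelled cKO lay below every control in both materials, with a wide empty interval between the groups. The log2 fold change was -1.46 (SE 0.10) in neuron RNA, a level that fell by 63.5%, with an adjusted p of 7.5e-05 (edgeR). The whole CA value was -1.64 (SE 0.09), with an adjusted p of 1.4e-09 (edgeR), and the call was kept in all 18 fits of both materials that left out 1 library.

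Htr1b encodes a Gi/o-coupled receptor that sits largely on axon terminals and limits transmitter release. Its levels in neuron RNA were 8.28, 7.65 and 8.57 CPM in the libraries labelled cKO and 9.94, 13.3 and 13.9 CPM in control. The groups did not overlap, but control replicate 1 lay close to the cKO libraries. The log2 fold change was -0.60 (SE 0.13, adjusted p = 0.048, edgeR), and the call was kept in 1 of the 6 fits that left out 1 library, that without control replicate 1, where the adjusted p was 0.0035 against 0.064 to 0.182 in the others. The whole CA range was 5.55 to 9.01 CPM (median 7.98) in libraries labelled cKO and 9.23 to 15.3 CPM (median 13.1) in control. The fold change there was -0.76 (SE 0.14, adjusted p = 0.0027, edgeR), and it was called in all 12 fits without 1 library.

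Htr2a encodes the Gq-coupled receptor on which serotonergic psychedelics act. Levels in neuron RNA were 8.66, 10.1 and 7.52 CPM in the libraries labelled cKO and 15.1, 15.9 and 14.2 CPM in control. Whole CA RNA gave 6.55 to 9.89 CPM (median 9.28) against 13.4 to 17.2 CPM (median 15.6). The groups were apart in both materials. The log2 fold changes were close, at -0.78 for neuron RNA (SE 0.12, adjusted p = 0.0083, edgeR) and -0.82 for whole CA RNA (SE 0.11, adjusted p = 1.0e-04, edgeR). Without neuron cKO replicate 1 the adjusted p in neuron RNA was 0.0653.

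Htr5b is a serotonin receptor gene whose human counterpart no longer encodes a full receptor. Neuron RNA labelled cKO held 4.10, 4.14 and 3.80 CPM of it and control neuron RNA 10.5, 9.34 and 8.75 CPM, with no overlap. The whole CA ranges met, at 4.98 to 8.41 CPM (median 6.29) and 7.66 to 9.97 CPM (median 8.54). Neuron RNA gave a log2 fold change of -1.25 (SE 0.11, adjusted p = 4.4e-04, edgeR) and whole CA RNA gave -0.45 (SE 0.12, adjusted p = 0.0458, edgeR). The whole CA call was kept in 2 of 12 fits without 1 library, those without cKO replicate 2 and without control replicate 1, and the adjusted p ran from 0.0133 to 0.123 over the 12. The difference between both fold changes was -0.80 (SE 0.19), which edgeR's interaction test did not call (adjusted p = 0.127), whereas DESeq2 gave an adjusted p of 0.0082 and edgeR with no filter 0.0463.

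Htr4 encodes a Gs-coupled receptor that raises pyramidal cell excitability. Neuron RNA held 17.9, 20.8 and 21.7 CPM in the libraries labelled cKO and 24.7, 27.7 and 24.3 CPM in control, with no overlap, and the fold change of -0.35 missed the threshold (SE 0.10, adjusted p = 0.135, edgeR). Whole CA RNA held 12.2 to 13.2 CPM (median 12.4) and 12.2 to 16.9 CPM (median 16.3), and the fold change of -0.32 was called (SE 0.09, adjusted p = 0.040, edgeR). Control replicate 6 had the lowest level of all 12 libraries, just below the lowest one labelled cKO, and the other 5 controls lay above every library labelled cKO. The call was kept in 2 of 12 fits without 1 library, those without control replicate 6 (adjusted p = 0.0045) and without cKO replicate 3 (0.0468), and the adjusted p reached 0.106.

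None of the other serotonin receptor genes was called by edgeR between the genotypes in either material. Htr6, a Gs-coupled receptor gene, had 5.30, 5.44 and 6.70 CPM in neuron RNA labelled cKO and 9.21, 7.38 and 6.74 CPM in control (fold change -0.42, adjusted p = 0.185, edgeR). Those groups did not overlap, though the nearest pair of libraries was almost level. Htr2c, a Gq-coupled receptor gene, had 54.5, 60.8 and 50.7 CPM in neuron RNA labelled cKO and 32.1, 55.4 and 53.4 CPM in control. Its whole CA levels were 49.6 to 64.5 CPM (median 57.0) and 61.0 to 73.8 CPM (median 65.4), with a fold change of -0.23 (adjusted p = 0.094, edgeR). Its fold changes had opposite signs in the materials, 0.24 in neuron RNA, and their difference of 0.47 had an unadjusted p of 0.012 and an adjusted p of 0.53 (edgeR). Htr7, a Gs-coupled receptor gene, had 6.28 to 11.1 CPM in whole CA RNA labelled cKO (median 9.50) and 9.01 to 14.3 in control (median 11.6), and its fold change of -0.32 had an adjusted p of 0.224 (edgeR). Htr1f (-0.35 in neuron RNA, -0.11 in whole CA RNA), Htr5a (-0.19 and -0.08) and Htr3a (-0.07 and -0.03) had adjusted p-values from 0.31 upward with edgeR.

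Among the dopamine receptor genes, Drd1 was called in whole CA RNA. It encodes the Gs-coupled D1 receptor. The libraries of whole CA RNA labelled cKO held 2.0 to 3.28 CPM (median 2.43) and the controls 3.46 to 4.28 CPM (median 3.75), with no overlap. The log2 fold change was -0.63 (SE 0.14, adjusted p = 0.0134, edgeR), and the call was kept in all 12 fits without 1 library. Neuron RNA gave 3.9, 5.14 and 3.71 CPM against 5.59, 7.05 and 6.23 CPM, again with no overlap, and a fold change of -0.56 whose adjusted p was 0.091 (SE 0.15, edgeR). Without neuron cKO replicate 2 that adjusted p was 0.0471, and DESeq2 gave 0.0311. Drd5, the other Gs-coupled dopamine receptor gene, stood at 8.82, 9.88 and 9.93 CPM in neuron RNA labelled cKO and at 10.5, 12.3 and 10.5 CPM in control. Its fold changes were -0.22 (neuron RNA) and -0.06 (whole CA RNA), neither called. Drd2, which is Gi/o-coupled, had 66 to 118 reads per neuron library and fold changes of -0.38 and -0.03, neither called.

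Adra2a, which encodes a Gi/o-coupled receptor for noradrenaline, was lower in both materials. It had 6.57, 7.93 and 8.41 CPM in neuron RNA labelled cKO and 13, 11.4 and 10.7 CPM in control. The whole CA libraries ran from 6.19 to 7.91 CPM (median 6.91) and from 9.78 to 12.3 CPM (median 9.91). No library labelled cKO reached a control in either material. The log2 fold changes were -0.62 (SE 0.12, adjusted p = 0.030, edgeR) and -0.60 (SE 0.10, adjusted p = 7.5e-04, edgeR). The whole CA call was kept in all 12 fits without 1 library. The neuron call was kept only in the fit without cKO replicate 3 (adjusted p = 0.0282), and the other 5 gave 0.0536 to 0.123.

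None of the remaining adrenergic receptor genes was called by edgeR between the genotypes, and DESeq2 called Adra1d in neuron RNA. Adra1d, a Gq-coupled receptor gene, had 32.1, 29 and 38.4 CPM in neuron RNA labelled cKO and 60.4, 50.7 and 42.6 CPM in control, with no overlap and a fold change of -0.63 (SE 0.14). Its adjusted p was 0.052 with edgeR and 0.0011 with DESeq2, and it was called in 2 of the 6 edgeR fits without 1 library, with an adjusted p of 0.0241 to 0.226 over the 6. Its whole CA ranges met, at 18.7 to 26.9 CPM (median 21.8) and 21.8 to 31.6 CPM (median 25.9), with a fold change of -0.23 (adjusted p = 0.265, edgeR). Adrb3, which is Gs-coupled, had 2.04, 1.98 and 2.0 CPM in neuron RNA labelled cKO and 3.45, 2.71 and 2.63 CPM in control, with no overlap and a fold change of -0.55 (SE 0.15, adjusted p = 0.095, edgeR). Adra1b, which is Gq-coupled, had 3.23, 3.44 and 3.58 CPM against 4.55, 3.74 and 4.30 CPM in neuron RNA (fold change -0.30, adjusted p = 0.260, edgeR). Its sign turned in whole CA RNA, at 2.19 to 3.72 CPM (median 3.22) in libraries labelled cKO and 2.08 to 3.10 CPM (median 2.52) in control, with a fold change of 0.31 (adjusted p = 0.326, edgeR). The interaction of Adra1b had an unadjusted p of 0.008 and an adjusted p of 0.49, and that of Adra1d 0.043 and 0.60 (edgeR). Adra1a (0.24 and, in whole CA RNA, -0.00024), Adra2c (-0.21 and 0.01) and Adrb1 (-0.12 and 0.11) had adjusted p-values of at least 0.448 with edgeR.

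The muscarinic receptor genes moved in both directions. Chrm3 and Chrm5, both Gq-coupled, were lower, and Chrm4, a Gi/o-coupled receptor gene, was called higher in whole CA RNA. Chrm3 was at 58.1, 60.2 and 64.6 CPM in neuron RNA labelled cKO and at 84.2, 89.2 and 81.4 CPM in control. That gap left no overlap, and the fold change was -0.48 (SE 0.08, adjusted p = 0.0153, edgeR). The Chrm3 groups overlapped in whole CA RNA, at 66.1 to 86.7 CPM (median 73.1) and 76.6 to 99.0 CPM (median 96.8), with a fold change of -0.28 (SE 0.08, adjusted p = 0.0468, edgeR). The Chrm3 call was lost without neuron cKO replicate 1 (adjusted p = 0.0825), cKO replicate 2 (0.0733) or control replicate 2 (0.0613), and in whole CA RNA it was kept in 3 of 12 fits, those without cKO replicate 4, control replicate 1 or control replicate 2, with an adjusted p of 0.0183 to 0.133 over the 12.

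Chrm5 had 2.04, 2.52 and 2.42 CPM in neuron RNA labelled cKO and 5.24, 3.80 and 3.62 CPM in control. Whole CA RNA held 2.35 to 4.56 CPM (median 2.96) and 4.66 to 6.51 CPM (median 5.4). The groups were apart in both materials, by the width of a few reads in whole CA RNA, where 40 to 76 reads stood against 77 to 115. The fold changes were -0.86 (SE 0.17, adjusted p = 0.029, edgeR) and -0.82 (SE 0.16, adjusted p = 0.0041, edgeR). The whole CA call was kept in all 12 fits without 1 library. The neuron call was lost without cKO replicate 1 (adjusted p = 0.154), cKO replicate 2 (0.0684) or control replicate 2 (0.0577).

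Chrm4 had 10.1 to 15.2 CPM in whole CA RNA labelled cKO (median 14) and 6.61 to 11.8 CPM in control (median 9.40). The ranges overlapped, and the fold change was 0.48 (SE 0.13, adjusted p = 0.040, edgeR). Only the fits without cKO replicate 2, cKO replicate 5 or control replicate 3 kept this call, with an adjusted p of 0.0163 to 0.0901 over the 12 fits. Neuron RNA gave 25.6, 29.3 and 31.4 CPM against 28.4, 22.8 and 19.5 CPM, a fold change of 0.29 that was not called (adjusted p = 0.33, edgeR). Chrm1, the Gq-coupled receptor gene of pyramidal cells, stood at 251.5, 249.8 and 286.1 CPM in neuron RNA labelled cKO and at 337.3, 298.1 and 272.1 CPM in control. Its fold change of -0.20 was not called (adjusted p = 0.36, edgeR), and in whole CA RNA it was -0.01, with an approximate 95% interval from -0.10 to 0.09. Chrm2, which is Gi/o-coupled, had fold changes of -0.01 and -0.15, neither called.

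None of the 3 histamine receptor genes was called between the genotypes by edgeR, and 1, Hrh1 in whole CA RNA, had an unadjusted p under 0.05. Hrh1, which is Gq-coupled, had 1.71, 4.57 and 3.26 CPM in neuron RNA labelled cKO and 3.59, 5.67 and 3.02 CPM in control, a wide spread within each group. Its whole CA levels were 3.96 to 6.47 CPM (median 5.13) and 5.46 to 7.90 CPM (median 6.29), with a fold change of -0.35 (SE 0.13, adjusted p = 0.174, edgeR). Hrh3, the Gi/o-coupled receptor of histamine neurons and other terminals, had 76.9, 73.2 and 78.8 CPM in neuron RNA labelled cKO and 81.1, 61.3 and 64.3 CPM in control, which overlapped (fold change 0.15). Hrh2, a Gs-coupled receptor gene, had fold changes of -0.03 (neuron RNA) and 0.07 (whole CA RNA), and its approximate 95% interval in neuron RNA ran from -0.20 to 0.13.

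**Figure D2:**
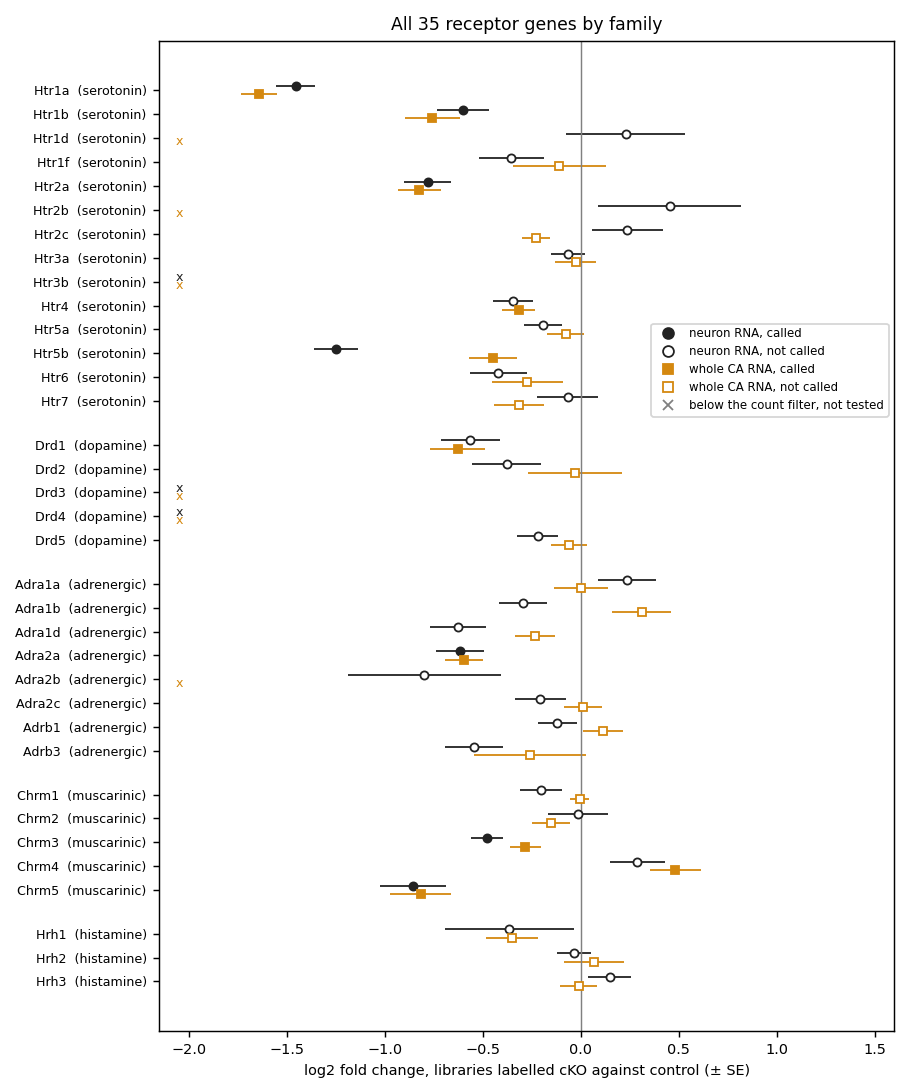
Log2 fold change with its SE for each of the 35 receptor genes, grouped by family, as libraries labelled cKO against control. Black circles are neuron RNA, orange squares whole CA RNA, filled where edgeR called the gene, and a cross marks a gene under the count filter. Most symbols lie left of 0, with 26 of 32 in neuron RNA and 24 of 29 in whole CA RNA.

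Genes with few reads were not tested. In neuron RNA these were Htr3b (0 to 3 reads per library), Drd3 (0 to 2) and Drd4 (6 to 13). In whole CA RNA they were Htr3b (0 to 4 reads), Drd3 (0 to 5), Drd4 (0 to 2, with 0 in all 6 controls), Htr1d (1 to 7), Htr2b (0 to 7) and Adra2b (0 to 6). Htr1d, Htr2b and Adra2b passed the filter in neuron RNA at 12 to 19, 20 to 53 and 5 to 14 reads, and their fold changes of 0.23, 0.45 and -0.80 were not called, with standard errors of 0.30, 0.37 and 0.39. Their approximate 95% intervals ran from -0.37 to 0.83, from -0.26 to 1.17 and from -1.56 to -0.03. The intervals given here take the SE as normal and are not those of the test. That of Adra2b is wholly negative, although its unadjusted p was 0.069 (edgeR).

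Across the tested members, 26 of 32 fold changes were negative in neuron RNA and 24 of 29 in whole CA RNA, beside 46.5% and 50.8% of all genes tested. The median fold change was -0.32 (neuron RNA) and -0.23 (whole CA RNA), where all genes tested had 0.0192 and -0.00273. At an unadjusted p under 0.05 there were 13 of 32 members in neuron RNA, beside 17.2% of all genes tested. In whole CA RNA there were 14 of 29, beside 15.7% of all genes tested. The libraries labelled cKO lay wholly below the controls for 16 of 32 members in neuron RNA, against 12.4% of all genes tested, and for 6 of 29 in whole CA RNA, against 1.93%. Those 6 were Htr1a, Htr1b, Htr2a, Drd1, Adra2a and Chrm5. No member lay wholly above, where 2245 of all 19622 genes tested did in neuron RNA and 177 of 15362 in whole CA RNA. By coupling, 4 of 13 tested Gi/o members, 3 of 10 Gq members and 0 of 8 Gs members were called in neuron RNA, and 5 of 11, 3 of 9 and 2 of 8 in whole CA RNA. A difference between the classes was not tested. All 8 Gs fold changes in neuron RNA were negative, with a median of -0.28 and 4 at an unadjusted p under 0.05, and DESeq2 called Drd1 among them. No interaction between genotype and material was called for a member by edgeR, where 0.16% of all genes tested were called. At an unadjusted p under 0.05 there were 4 of 29 (Htr5b, Adra1b, Htr2c and Adra1d), beside 8.11% of all genes tested. DESeq2 called 1 member, Htr5b, and 75 genes in all.

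The whole CA libraries came from 2 sequencing lanes by their file names, with replicates 1 to 3 of each genotype in lane 1 and replicates 4 to 6 in lane 2. All 10 genes called in whole CA RNA kept their sign within each lane. The within-lane fold changes were -1.44 and -1.84 for Htr1a, -0.59 and -0.95 for Htr1b, -0.69 and -0.96 for Htr2a, and -0.63 in lane 2 against -0.62 in lane 1 for Drd1. They were -0.64 and -0.55 for Adra2a, -0.89 and -0.72 for Chrm5, and 0.37 and 0.60 for Chrm4. With 3 libraries of each genotype, the calls kept were Htr1a and Htr2a in lane 1 and Htr1a, Htr2a and Htr1b in lane 2. Leaving out 1 neuron library gave 2 to 7 receptor genes called, with 2 without cKO replicate 1, 4 without cKO replicate 2 and 3 without control replicate 2.

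Reads from overlapping genes cannot be told apart without a stated strand of counting. In the RefSeq gene table of GRCm38.p6, 14 of the 35 receptor genes share bases with another gene and 3 with a protein-coding gene. Chrm5 shares 43479 bases of its span with Aven, whose fold changes were -0.29 (adjusted p = 0.23) and, in whole CA RNA, 0.02 (adjusted p = 0.96, edgeR). Chrm4 shares 31 bases with Mdk, at -0.09 and -0.04, neither called. Htr1b shares 1903 bases with the long non-coding gene D430036J16Rik, at -0.64 (adjusted p = 0.18) and -1.38 (adjusted p = 0.0086, edgeR). The part of these overlaps in the receptor counts was not tested.

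Markers of hippocampal cell types also differed between the genotypes. Of 6 dentate granule cell markers, 4 were called lower in neuron RNA (C1ql2, Dsp, Lct and Tdo2), and their summed level was 160 to 202 CPM in libraries labelled cKO and 230.5 to 255 CPM in control. Of the same markers 3 were called lower in whole CA RNA (Dsp, Lct and Stxbp6), at summed levels of 75.9 to 144 and 133 to 173 CPM. Of 8 CA2 and CA3 markers, 1 was called lower in neuron RNA (summed 285.5 to 304.5 against 336 to 375 CPM) and 6 in whole CA RNA (373 to 425 against 479 to 550 CPM). Of 6 CA1 markers only Wfs1 was called, lower in both materials. The CA1 markers summed to 694 to 753 against 798 to 842 CPM in neuron RNA, without overlap. Their sums overlapped in whole CA RNA (903 to 957 against 856 to 973 CPM). No marker was called by edgeR among 10 interneuron markers, a list that holds Htr3a itself (at an unadjusted p under 0.05 there was 1 in neuron RNA, and whole CA RNA had 2). Of 5 fibroblast markers, Dcn was called lower in both materials, with summed levels of 13.3 to 15.7 against 42.5 to 52.3 CPM in neuron RNA and 23.9 to 29.2 against 61.1 to 96.8 CPM in whole CA RNA. The 6 choroid plexus markers, of which Kl was called lower in both materials, summed to 12.9 to 14.9 against 26.8 to 29.3 CPM in neuron RNA, where Otx2 was at 0. In neuron RNA 4 of the fibroblast markers and 2 of the choroid plexus markers passed the count filter. Both sums can rest on single genes, which was not tested. Of 6 excitatory neuron markers, Neurod6 was called lower in both materials (-2.25 and -1.78). Of 4 thalamus and habenula markers, 1 was called lower in both materials, and the list summed to 15.9 to 18.2 against 22.4 to 29.9 CPM in neuron RNA and 25.2 to 36.8 against 35.2 to 52.4 in whole CA RNA. No subiculum marker was called by edgeR (1 had an unadjusted p under 0.05 in neuron RNA), but their sum in neuron RNA was 82.0 to 97.7 against 112 to 124 CPM. Of 6 microglial markers, Cx3cr1 was called lower in whole CA RNA, where they summed to 239 to 261 against 267.5 to 326 CPM, and of 7 astrocyte markers Aqp4 was. In neuron RNA the microglial markers summed to 9.85 to 11.03 against 11.21 to 11.69 CPM, with none called by edgeR. Summed levels were higher in the libraries labelled cKO, without overlap, for astrocyte markers in neuron RNA (436 to 450 against 356 to 418 CPM) and for 5 markers of striatal medium spiny neurons, Drd2 among them, in whole CA RNA (49.3 to 56.1 against 37.0 to 48.1 CPM). The 5 mural cell markers also summed higher in neuron RNA, at 11.69 to 12.56 against 9.09 to 11.62 CPM. The part of these cell types in the lower receptor counts was not tested.

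The enzymes, G proteins, effectors and regulators around the receptors were read against the share of all genes called, which was 2.75% for neuron RNA and, for whole CA RNA, 4.17%. Among 23 genes that make, transport or degrade the transmitters, Ache, which encodes the enzyme that breaks down acetylcholine, was called, and it was lower in both materials. Its means were 69.8 ± 1.73 CPM (SD, n = 3) against 101 ± 9.62 (n = 3) in neuron RNA and 40.2 ± 4.03 (n = 6) against 56.9 ± 7.10 (n = 6) in whole CA RNA, with adjusted p-values of 0.0153 and 0.0012 (edgeR). It was 1 of 17 genes of that list tested in neuron RNA and 1 of 14 in whole CA RNA. Among 25 tested genes of G protein subunits, Gnb4 was higher in neuron RNA (fold change 0.53, adjusted p = 0.0187, edgeR), and in whole CA RNA none of 25 was called by edgeR, with 10 at an unadjusted p under 0.05, beside 15.7% of all genes tested. Of 44 effector genes, only Itpr2, an inositol trisphosphate receptor gene, was called in neuron RNA, at a fold change of -0.91 (adjusted p = 0.0020, edgeR). Whole CA RNA had 5 of 44 called, 3 higher and 2 lower, and 16 of 44 had an unadjusted p under 0.05. Of the called ones, the potassium channel gene Kcnj9 was higher (fold change 0.40 on the log2 scale) and Kcnq3, another potassium channel gene, was lower (-0.26). Of 27 regulators of receptor signalling, none was called by edgeR in neuron RNA, with 4 at an unadjusted p under 0.05, and Grk4, a receptor kinase gene, was lower in whole CA RNA (-0.67).

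The control libraries also show how each receptor transcript was divided between neuron RNA and whole CA RNA. The material cannot be told apart from preparation, sequencing run and depth, and these comparisons share their control libraries with the genotype comparisons above. Of 29 receptor genes tested, 12 were higher in neuron RNA and 8 lower, beside 43.6% and 40.1% of all 16859 genes tested, 83.6% in all. Hrh2 differed most, at 13.8 ± 0.532 CPM on a common scale (SD, n = 3) in neuron RNA and 3.27 ± 0.593 CPM (n = 6) in whole CA RNA, a log2 difference of 2.08 (SE 0.13, adjusted p = 2.0e-10, edgeR). Adrb3 (1.51), Htr6 (1.28), Chrm4 (1.16) and Adrb1 (0.90) followed, and Adra1d, Htr1f, Adra1b, Drd1, Htr4, Hrh3 and Htr3a were higher by 0.81 to 0.30.

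Hrh1 was the member most strongly lower in neuron RNA, at 3.77 ± 1.25 CPM (n = 3) against 6.83 ± 0.979 CPM (n = 6), a log2 difference of -0.86. Htr2c (-0.66), Chrm5 (-0.55), Htr7 (-0.51), Adra1a (-0.51), Drd5 (-0.49), Htr1a (-0.28) and Chrm3 (-0.27) were also lower. For comparison, the 7 astrocyte markers had a median of -5.86 and the 6 microglial markers -5.13. By coupling, 8 of 8 Gs members were called (6 higher, 2 lower), 7 of 9 Gq members (2 higher, 5 lower) and 4 of 11 Gi/o members (3 higher, 1 lower), beside the 83.6% of all genes, and a difference between these classes was not tested. With scaling by library size alone, the median of all genes moved from 0.07 to 0.23, and Htr1a (-0.12, adjusted p = 0.281) and Chrm3 (-0.11, adjusted p = 0.277, edgeR) were no longer called. Without control neuron replicate 3, Htr1a (adjusted p = 0.0895) and Chrm3 (0.0546) were not called, and without control neuron replicate 2 Htr1f (0.0594) was not.

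**Figure D3:**
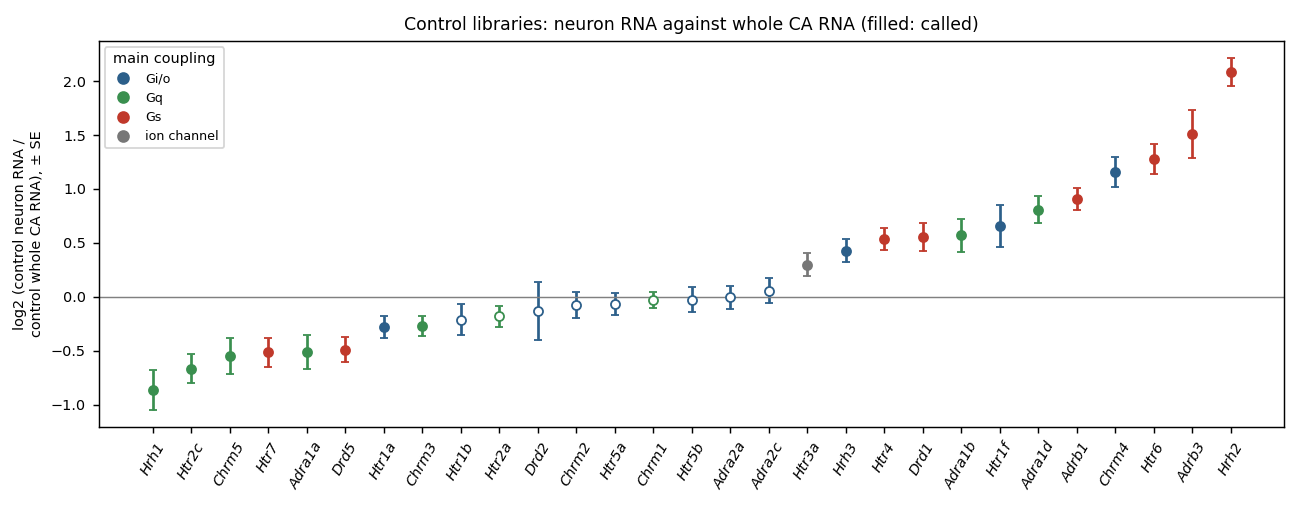
Log2 difference between control neuron RNA and control whole CA RNA with its SE for the 29 receptor genes tested, ordered by value and coloured by main coupling. Filled points were called by edgeR, and the order runs from Hrh2 at 2.08, which is Gs-coupled, to Hrh1 at -0.86, which is Gq-coupled.

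H3K4me3, the mark that SETD1 enzymes write at gene starts, was measured as the bases under a peak within 2 kb of a gene's listed starts. Starts were listed for 28 of the 35 genes, and none for Htr3a, Htr4, Htr5b, Adra1a, Adra1d, Adrb3 and Chrm1. Of the 24 genes with a peak in at least 3 libraries, 5 had shorter coverage in the libraries labelled cKO and none had longer. They were Drd1, Hrh1, Htr1f, Htr1a and Htr6. Over all 14800 genes tested with limma, 15.4% were called in either direction and 14.8% were shorter. No H3K4me3 peak lay within 2 kb of the listed starts of Htr3b, Drd3, Htr2b or Chrm5. Within 5 kb, Htr3b had 571 to 816 bp under a peak and the other 3 had 0. The listed start of Chrm5 lies 55.5 kb from the gene's outer 5′ end, that of Drd3 8.2 kb and that of Htr2b 4.3 kb.

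The widest difference was at Drd1, where the window takes in both listed starts. Its coverage was 1122, 1354, 1151 and 1221 bp in the libraries labelled cKO and 2471, 2837, 2928 and 2652 bp in control. The highest library labelled cKO lay far below the lowest control, and the means were 1212 and 2722 bp. The log2 difference was -1.11 (SE 0.07, adjusted p = 2.4e-04, limma). At Htr1a the coverage was 1963, 2021, 2158 and 2053 bp against 2777, 2499, 2598 and 2533 bp, with no overlap (log2 difference -0.33, SE 0.04, adjusted p = 0.0038, limma). Hrh1 had 1538, 1698, 1778 and 1727 bp against 2601, 2738, 2408 and 2381 bp (-0.56, adjusted p = 0.0017, limma). Its listed starts lie apart, from chr6:114397936 to chr6:114458522, and these values are sums over separate windows. The RNA of Hrh1 was not called in either material. Htr1f had 1543, 1660, 1713 and 1705 bp against 2136, 2274, 2084 and 2146 bp (-0.37, adjusted p = 0.0025, limma), and Htr6 had 1907, 2495, 2279 and 2301 bp against 3036, 3098, 3219 and 2773 bp (-0.42, adjusted p = 0.0158, limma). The groups did not overlap at any of these 5 genes, and each call was kept in all 8 fits that left out 1 library. Replicate 4 of each genotype came from another lane than replicates 1 to 3 by the file names, and the gap was present in both lanes.

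**Figure D4:**
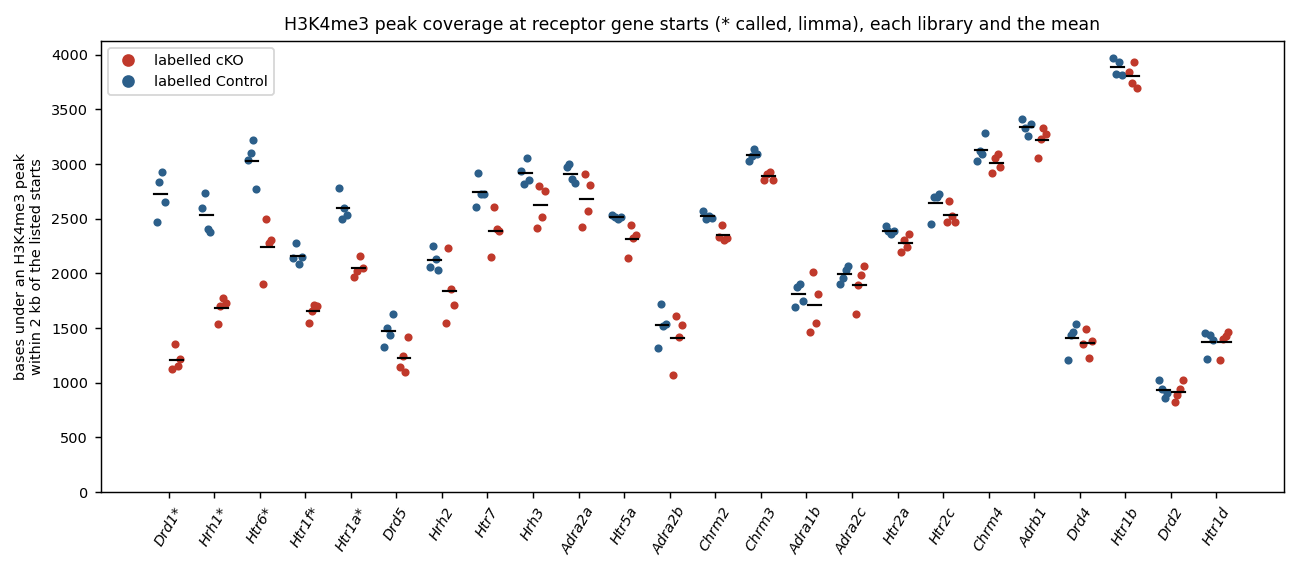
Bases under an H3K4me3 peak within 2 kb of the listed starts of 24 receptor genes, with points for the 4 libraries labelled control (blue) and the 4 labelled cKO (red) and bars for the means. An asterisk marks the 5 genes called by limma, and Drd1 shows the widest gap, at 1122 to 1354 bp against 2471 to 2928 bp.

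Among the 24 members, 23 log2 differences were negative, beside 72.4% of all genes tested, and the median was -0.11 beside -0.06. At an unadjusted p under 0.05 there were 11, beside 30.4% of all genes tested. Coverage at Htr2a was 2192 to 2361 bp in libraries labelled cKO and 2356 to 2433 bp in control, a difference of -0.07 that was not called (adjusted p = 0.18, limma), although its RNA was called in both materials. Within 5 kb, however, its coverage was called shorter, at 2928 to 3657 bp against 3712 to 3868 bp (-0.26, adjusted p = 0.028, limma). Chrm3 (-0.09, adjusted p = 0.050) and Chrm2 (-0.10, adjusted p = 0.057) missed the threshold at 2 kb with no overlap between the groups. At Htr1b the peak nearly filled the window, with 3694 to 3932 bp against 3810 to 3970 bp. A window of 5 kb called 14 of 25 receptor genes, all shorter, beside 28.7% of all genes tested. In that window Htr1b was called, at 3906 to 4182 bp against 5669 to 6342 bp (-0.55, adjusted p = 2.7e-04, limma). Chrm3 (-0.34, adjusted p = 9.8e-04) and Chrm4 (-0.34, adjusted p = 0.0037, limma) were called shorter there too, and Adra2a was not (-0.17, adjusted p = 0.22). Drd1 stood at 1122 to 1354 bp against 3585 to 4463 bp (-1.70), and Htr1a at 1963 to 2670 bp against 4701 to 5127 bp (-1.09). A covered length does not measure the height of the signal within a peak, and a single input library served each genotype, so input and genotype cannot be told apart.

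The other marks gave few calls at these starts. H3K4me1 coverage at Htr6 was called shorter, at 2719 bp in libraries labelled cKO and 4649 bp in control (log2 difference -0.77 from the fit, SE 0.12, adjusted p = 0.034, limma), 1 of 26 members tested beside 1.66% of all genes. The other 3 controls filled the window at 4782 bp where control replicate 2 had 4248 bp, and the call was kept in 1 of 8 fits without 1 library, with an adjusted p of 0.0375 to 0.0842. At an unadjusted p under 0.05 there were 4 members for H3K4me1, beside 15.1% of all genes, with Htr6 and Drd5 (-0.26) shorter and Adrb1 (0.81) and Chrm3 (0.59) longer. For H3K27ac none of 24 members was called by limma (0.45% of all genes were), and 5 had an unadjusted p under 0.05 (Htr1f, Htr2a, Htr5a, Adra2c and Hrh2), all shorter, beside 12.7% of all genes. The H3K27ac differences were negative for 22 of 24 members, beside 65.5% of all genes, with a median of -0.42 beside -0.07. Control replicate 1, of 3 controls, had 197207 H3K27ac peaks, beside 146411 to 169046 in the other libraries. Some negative differences rest on short coverage with 0 bp in at least 1 library labelled cKO. These include Htr1d (means 156 against 341 bp), Htr2b (184 against 449), Adra1b (80 against 357) and Drd4 (236.5 against 414). The part of either in the shift was not tested. For H3K9ac none of 26 was called by limma (0.522% of all genes were), and 6 had an unadjusted p under 0.05 (Htr1a, Htr1f, Htr5a, Htr6, Adra2c and Adrb1), all shorter, beside 14.9% of all genes. At Htr1a the H3K9ac coverage was 1809 to 1938 bp against 2329 to 2560 bp, with no overlap (adjusted p = 0.081, limma). At Htr2a the H3K27ac coverage was 1218 to 1614 bp against 1937 to 2071 bp, also with no overlap (adjusted p = 0.167, limma). Within 5 kb, H3K9ac coverage was called shorter at Htr1a (-0.76, adjusted p = 0.0219), Htr5a (-0.931, adjusted p = 0.00599) and Htr6 (-0.479, adjusted p = 0.0442, limma). It was called longer at Htr3b (0.934, adjusted p = 0.0389, limma), and 268 genes were called there in all.

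Set side by side, the RNA and H3K4me3 differences of a gene were only loosely related. Across the 23 genes with both values in neuron RNA Spearman's rho was 0.27, and across 21 genes in whole CA RNA it was 0.32. These are descriptions across genes of the same libraries, and genes are not independent replicates. Htr1a was called in both readouts in neuron RNA, 1 of 5 genes called in RNA and 1 of 5 called in H3K4me3. Htr1a and Drd1 were called in both in whole CA RNA, 2 of 7 and 2 of 5. Hrh1, Htr1f and Htr6 had shorter H3K4me3 and no RNA call, and Htr2a, Htr1b, Adra2a, Chrm3 and, in whole CA RNA, Chrm4 had an RNA call and no H3K4me3 call in the 2 kb window. Of those 5, the 5 kb window called all but Adra2a shorter.

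**Figure D5:**
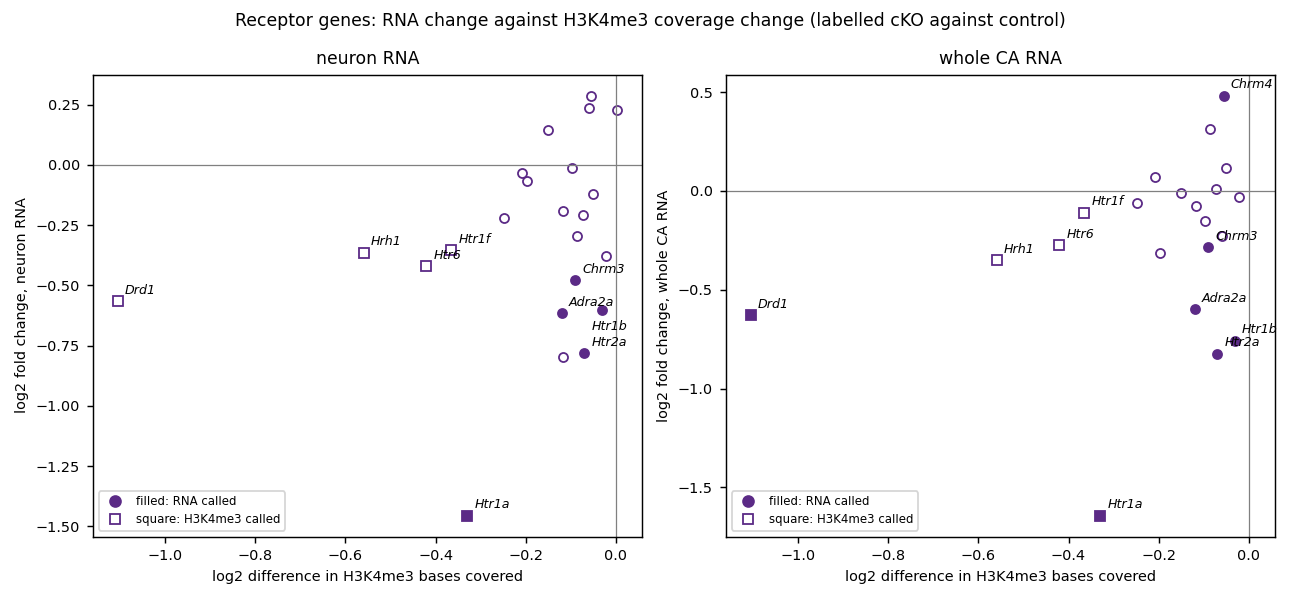
Log2 fold change of RNA against log2 difference in H3K4me3 bases covered, 1 point per receptor gene, with neuron RNA at the left (23 genes) and whole CA RNA at the right (21 genes). Filled symbols were called in RNA and squares in H3K4me3, and Htr1a at the bottom and Drd1 at the far left stand apart from the others.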

How the data were processed

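The 18 RNA libraries were deposited as whole-number read counts per Ensembl gene ID, and the values show no normalization by the authors. The aligner, the counting tool, the annotation and the strand of counting are not given in the sources used here. The submitters' processing notes name mm10, GRCm38, SAMtools and MACS2. A supplied list pairing IDs with symbols covered 99.3% (neuron) and 98.9% (whole CA) of them. TruSeq RNA v2 and NEBNext Ultra DNA kits were used, per the labels' protocols.

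The 30 ChIP libraries were deposited as peak lists with each peak's position, length, −log10 values of p and q. The authors called peaks for each library with MACS 2.1.0.20140616, or 2.1.1.20160309 for H3K4me3, at a q-value cutoff of 0.1, with broad calling for H3K4me1, per the file headers. H3K4me3 libraries held 24.4 to 27.8 M tags. The summit, height and fold columns of these lists were other deposited values and entered no result.

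Counts were tested with edgeR 4.0.16 (R 4.3.3; TMM factors, filterByExpr, quasi-likelihood fit and test) in each material, for control neuron RNA against control whole CA RNA, and for the interaction in 1 fit of 18 libraries over the 47569 IDs found in both. A fold change is the log2 ratio of cKO to control, as labelled, and p-values were adjusted by Benjamini-Hochberg over all genes tested. CPM use the total counts of a library multiplied by its TMM factor, except for Setd1b, where they use the total counts alone. No transcript lengths were used, so levels are not compared between genes.

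Covered bases within 2 kb of RefSeq starts (GRCm38.p6), plus an offset of 100 bp, were compared on the log2 scale with limma 3.58.1. Every receptor gene is accounted for, with library values for those called, those with an unadjusted p under 0.05 and the one with the highest control CPM in each family. Of the signalling lists, called genes are named, except that not every called effector gene is reported here. Members, lists and tests were chosen with earlier results of these data known. The listed gene Pde2a was not matched. Scripts were tested on simulated data. Alternatives were RLE factors, library size only, other count filters, DESeq2 1.42.0, other thresholds, the lanes, a replicate block, leaving out each library, a 5 kb window and a stricter peak threshold.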

Additional observations from a re-analysis of the deposited data

Results flagged for a closer look

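Among 58 groups of 6 whole CA libraries and 50 groups of 4 ChIP libraries (H3K4me3 at 24 genes and H3K4me1 at Htr6), 4 receptor values stood apart from the rest of their group by Dixon's test, which chance gives in about 1 of 20 groups. For Htr4, whole CA control replicate 6 held 12.16 CPM, where the next control held 16.03 and the highest 16.88. For Adra1b, whole CA replicate 2 labelled cKO held 2.186 CPM, with the next library at 3.199 and the highest at 3.717. For Htr2c, H3K4me3 control replicate 1 covered 2456 bp, with the next at 2695 bp. For Htr6, H3K4me1 control replicate 2 covered 4248 bp, where the other 3 controls covered 4782 bp.

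Of the effector genes, Itpr2 differed between materials in its genotype effect, with an interaction of -0.86 on the log2 scale (adjusted p = 0.0020, edgeR). Its mean was 5.43 CPM in neuron RNA labelled cKO and 10.2 CPM in control, and 30.7 and 31.8 CPM in whole CA RNA.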

How the results depend on the processing

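No receptor gene's fold change or covered length changed sign where it was called, in any alternative run. Over single genes, 938 settings kept the side of the threshold, 93 lost a call and 13 gained one. These totals include genes not called in the reported fits, and an adjusted p under 0.1, which cannot lose a call. Among the neuron RNA calls, Htr1a and Htr5b were kept in every setting. Htr1b was lost in 7 settings and kept in 6, and Adra2a was lost in 6 and kept in 7. Over counts of calls, 135 stayed within 1.5 times the reported count and 61 did not.

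In neuron RNA all genes called numbered 840 with DESeq2, 930 at an adjusted p under 0.1 and 327 with a replicate block, and 207 to 482 without 1 library (receptor genes 2 to 7). In whole CA RNA, replicates 1 to 3 alone gave 207 genes and 2 receptor genes, replicates 4 to 6 gave 224 and 3, and leaving out 1 library gave 467 to 669 and 6 to 8. The interaction gave 69 genes and 1 receptor gene with no filter, 75 and 1 with DESeq2, and 18 to 25 without 1 library. For H3K4me3 the 5 kb window gave 4633 genes and 14 receptor genes. A −log10 q of at least 5 gave 2211 and 8, and leaving out 1 library gave 1426 to 2511 and 5 to 8. For H3K4me1 the 5 kb window gave 1339 and 2, and leaving out 1 library 182 to 338 and 0 to 1. The stricter H3K4me1 peaks gave 284 and 0, but left only Adra2b, Chrm2, Drd4, Hrh3 and Htr1d to test. Htr6 was not among them, so its call was not tested at that threshold. For H3K9ac the 5 kb window gave 268 and 4, the stricter peaks 90 and 1, and leaving out 1 library 8 to 62 genes. For H3K27ac leaving out 1 library gave 2 to 75 genes. The cause of these differences was not tested.

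Samples of the 2 genotypes share replicate numbers, and whether these numbers pair them was not settled. Same-numbered deviations correlated at -0.0569 to 0.286 in neuron RNA (1 of 3 pairs over 0.1) and at -0.0635 to 0.203 in whole CA RNA (4 of 6). In neuron RNA 1 of 3 libraries labelled cKO correlated best with its own number, and in whole CA RNA 2 of 6. The ChIP libraries were not checked in this way. With the replicate block, 3 receptor genes were called in neuron RNA (Htr1a, Htr2a and Htr5b) and 11 in whole CA RNA, among them Htr2c (-0.23, adjusted p = 0.0257, edgeR), which was not called without it. Over all genes the block gave 839 calls in whole CA RNA, against 640 without it. For the marks it gave 1357 H3K4me3 calls over all genes, 15 for H3K4me1 with 0 receptor genes (Htr6 at an adjusted p of 0.185, limma), and 0 for H3K27ac and for H3K9ac.

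Depth limits the members with few reads: in whole CA RNA 6 receptor genes were under the filter, and among those tested Drd1 had 39 to 70 reads per library and Chrm5 40 to 115. Levels rest on counts whose strand is not given, and covered lengths on peak calls with 1 input per genotype.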
